A study of Mus musculus with 6 samples.

Results

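Interferon-response microglia were barcodes of microglia that also held RNA of genes induced by interferon. They were selected on their own counts from a single-cell RNA sequencing matrix of 31053 genes and 40411 cell barcodes. A member had more than 200 and at most 2500 genes, under 5% of its unique molecular identifiers (UMIs, each marking 1 captured RNA molecule) on mitochondrial genes, and over 3% on Cst3, C1qa, C1qb, C1qc, P2ry12 and Tmem119, which mark microglia. It also had a UMI of at least 3 of the 8 genes Ifit1, Ifit2, Ifit3, Isg15, Rsad2, Usp18, Oasl1 and Irf7, and at least 0.15% of its UMIs on these 8 together. Of the 40411 barcodes, 38751 passed the limits on genes and mitochondrial RNA, 37629 of these were microglial, and 435 were members. The members made up 1.16% of the microglial barcodes (95% exact binomial interval 1.05% to 1.27%, for counting error only). They were set against the 32968 microglial barcodes with no UMI of any of the 8 genes, called comparators below. A further 4226 microglial barcodes lay between, with some of the 8 genes but short of the rule.

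The cells were CD45+ immune cells sorted from the tumor-bearing brain hemisphere of female SCID mice, a strain without functional T and B cells, that carried intracranial xenografts of the human glioma cell line U87. In 3 mice the U87 cells expressed IL-33, a cytokine of the IL-1 family, and the hemisphere was taken 3 weeks after implantation. In the other 3 mice the U87 cells carried the empty vector pcDNA 3.1, and the hemisphere was taken at 6 weeks. Each mouse received 50000 tumor cells, and the labels give an age of 6 to 8 weeks. Tumor type and time after implantation differed together between the groups and cannot be told apart. There was no mouse without a tumor. The barcodes end in a suffix from 1 to 6, 1 for each library, but the sample labels and the barcode names do not tie a suffix to a mouse. The barcode numbers of the suffixes do match the cell numbers that the study lists for its libraries by tumor type. That match was not used, since groups were taken from the labels alone, so the suffixes were not assigned to groups here, IL-33 and pcDNA mice were not compared, all barcodes were treated as 1 pooled sample, and no difference below carries a test between mice. Values are given for each suffix instead, as libraries not assigned to a group.

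Type I interferons bind the receptor made of Ifnar1 and Ifnar2, and the kinases Jak1 and Tyk2 then activate STAT proteins, among them Stat2. With Irf9 these form a complex that binds the interferon-stimulated response element in front of many genes. The products of these genes block viral RNA and translation (the Ifit, Oas and Mx families), bind foreign nucleic acid, load peptides onto MHC class I, or damp the signal (Usp18). Microglia, the resident macrophages of the brain, express the receptor, and small groups of microglia with this program are known from the developing, aged, injured and tumor-bearing brain.

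Promoter sequences of genes that chose the members are shown to set windows that hold letters read by the complex of STAT proteins and Irf9 beside a window, that of Oasl1, without them. RefSeq windows (GRCm38.p6) from 250 bases before to 50 bases after a transcription start matched 7 of the 8 genes. They were searched on both strands for GAAANNGAA, the core of the interferon-stimulated response element. The 160 bases before the start are printed 5' to 3' along the gene's strand, with matches on either strand in capitals.
Isg15, chr4:156200819-156200978, minus strand: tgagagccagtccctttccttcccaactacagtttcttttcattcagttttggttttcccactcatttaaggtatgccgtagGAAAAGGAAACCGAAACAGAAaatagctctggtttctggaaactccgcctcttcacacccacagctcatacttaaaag
Ifit3, chr19:34583369-34583528, plus strand: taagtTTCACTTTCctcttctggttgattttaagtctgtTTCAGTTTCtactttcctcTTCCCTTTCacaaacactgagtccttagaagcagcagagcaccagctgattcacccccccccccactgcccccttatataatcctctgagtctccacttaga
Ifit1, chr19:34640729-34640888, plus strand: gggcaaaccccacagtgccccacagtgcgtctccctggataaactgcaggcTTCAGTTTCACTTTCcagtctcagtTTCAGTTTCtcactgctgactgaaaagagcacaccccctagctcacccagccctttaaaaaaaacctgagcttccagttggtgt
Rsad2, chr12:26456453-26456612, minus strand: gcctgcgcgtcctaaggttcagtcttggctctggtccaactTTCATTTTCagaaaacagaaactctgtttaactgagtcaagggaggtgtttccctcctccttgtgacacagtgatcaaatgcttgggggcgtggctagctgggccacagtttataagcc
Oasl1, chr5:114923080-114923239, plus strand: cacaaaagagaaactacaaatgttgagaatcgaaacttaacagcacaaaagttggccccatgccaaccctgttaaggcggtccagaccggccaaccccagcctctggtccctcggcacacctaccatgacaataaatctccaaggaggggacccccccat
Isg15 held 3 overlapping matches, their first bases at -78, -72 and -66 from the start. Ifit1 held 3, of which those at -109 and -103 overlapped and the other began at -84. Ifit3 held 3, at -155, -121 and -102, and Rsad2 held 1, at -119. The windows of Oasl1, Irf7 and Ifit2 held none, which says only that these letters were not in them. The core was present in the windows of 9.76% of all 27025 genes with a window and of 9.84% of the 3728 matched genes among those compared below. Of the 163 matched genes at least 2-fold higher in members, 49 (30.1%) held it, and of the 19 matched genes at 0.5-fold or lower, 3 (15.8%) did. Of the 208 higher genes, matched or not, 105 would have been compared on their level in comparators alone. The others entered the comparison only by being high in members. No share of the core was taken for those 105, and the difference from 9.84% was not tested. A STAT site, TTCNNNGAA, was present for 9.55% of all genes and for 19 (11.7%) of the 163. A match describes letters and not binding.

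Before the levels, the barcodes themselves need a remark. The 6 suffixes held 29579 distinct barcode sequences, and 3890 of these occurred under more than 1 suffix, 490 of them under all 6. The barcodes with such shared sequences numbered 14722, from 20.7% of suffix 3 to 51.0% of suffix 5. They were shallower than the rest: their median lay between 698 and 1125 UMIs by suffix, against 2729 to 3740.5 UMIs for sequences found under 1 suffix only. Of the 435 members, 126 (29.0%) had a shared sequence, and 99 of these were members under another suffix as well, so that the 435 members had 364 distinct sequences. Of the comparators, 39.4% were shared. The cause was not tested. Shares, counts of genes and a number of levels are therefore also given for the 309 members, of 23403 microglial barcodes, whose sequence occurred under 1 suffix only.

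Members were found under every suffix. They numbered 68 of 7559 microglial barcodes (0.900%) under suffix 1, 64 of 9903 (0.646%) under suffix 2, 14 of 2697 (0.519%) under suffix 3, 77 of 5679 (1.36%) under suffix 4, 143 of 6298 (2.27%) under suffix 5 and 69 of 5493 (1.26%) under suffix 6. The interval of suffix 5 (1.92% to 2.67%) lay above those of the other five, and that of suffix 4 (1.07% to 1.69%) overlapped that of suffix 6 (0.979% to 1.59%). Without shared sequences the shares were 0.869%, 0.473%, 0.566%, 1.55%, 3.76% and 1.5%, with suffix 5 again above the rest, and the whole came to 1.32%. Suffix 5 gave 32.9% of the members, or 36.2% of those not shared. Without it the share was 0.932%. Thinning moved the shares as well. In a barcode of 1000 UMIs, 3 genes with a UMI always exceed 0.15%, so the limit on the share no longer acted. The thinned shares thus rest on another cut than those at full depth. After each barcode was thinned to 1000 UMIs, which left out 475 to 2321 shallower barcodes per suffix, the shares were 0.573%, 0.324%, 0.405%, 0.883%, 1.54% and 0.740%, in all 0.705%, in nearly the same order of suffixes.

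**Figure D1:**
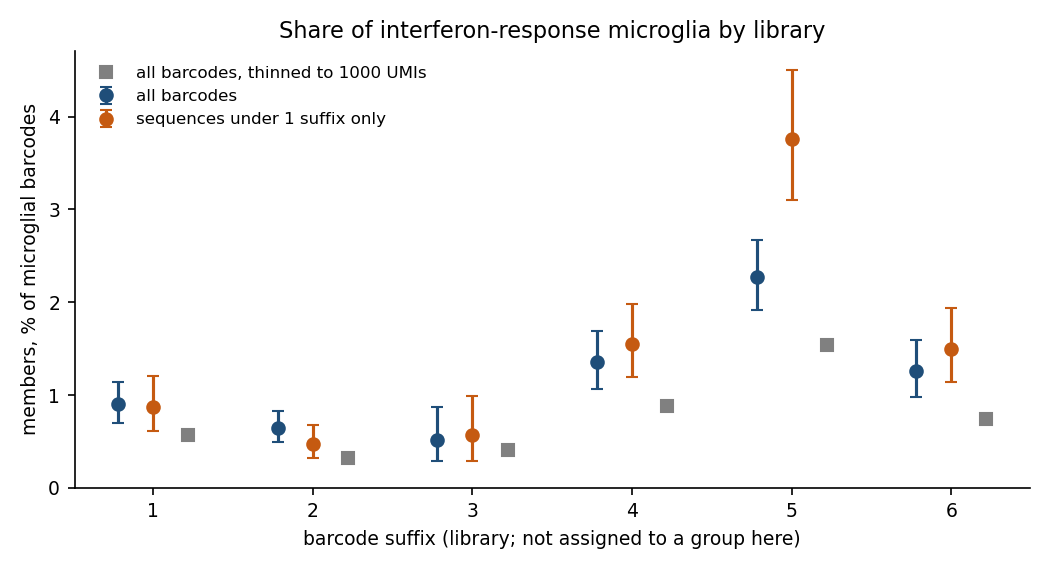
Members as a percent of microglial barcodes (vertical axis) for each barcode suffix (horizontal axis); blue points are all barcodes and orange points are sequences found under 1 suffix only, both with 95% exact binomial intervals, and gray squares are all barcodes thinned to 1000 UMIs, without interval. Suffix 5 is highest on each scale, at 2.27%, 3.76% and 1.54%.

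Deeper barcodes met the rule more often. Members were 64 of 8837 microglial barcodes (0.724%) at 500 to 1000 UMIs, 70 of 7180 (0.975%) above 1000 to 2000 UMIs and 301 of 21612 (1.39%) above 2000 UMIs. In the shallowest of these bins 3 of the 64 members were not shared, and in the deepest 283 of 301. The median member had 3160 UMIs (range 512 to 8692) and 1329 genes, against 2307 UMIs and 1063 genes in comparators, so levels were compared within suffix and UMI bin. The rule cuts a continuous scale. Of the microglial barcodes, 3440 had 1 of the 8 genes and 609 had 2. The members held a median of 5 of the 8 genes and 0.368% of their UMIs on them, from 0.151% to 3.28%. Just outside, 177 barcodes had at least 3 of the genes but from 0.0401% to just under 0.15% of their UMIs on them (median 0.103%). These were deeper, with a median of 4525 UMIs.

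The label was checked against markers. P2ry12, the purinergic receptor that marks resident microglia, and Tmem119 are part of the rule and so no check of it; each had a UMI in 90.8% of members, against 91.6% and 92.9% of comparators. Shares of comparators with a UMI of a gene, here and below, were taken over all 32968 without matching for depth. The 9 microglial marker genes outside the rule summed to 17542 CPM (UMIs of a gene per 1000000 UMIs of all genes) in members and 22128 CPM in matched comparators. No member was among the 5% of barcodes with the highest doublet scores of its suffix, where 4.87% of all microglial barcodes were. The doublet caller marked at most 0.417% of a suffix and did not work as a filter, so no barcode was removed by it.

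The genes that chose the members are described first, without any test. Isg15, a ubiquitin-like modifier, had the highest level, 1182 CPM (95% Poisson interval 1126 to 1241, counting error only), and a UMI in 84.6% of members. Its level by suffix was 1384, 738, 1201, 1276, 1160 and 1221 CPM, so suffix 2 was low and the others lay close together. In all other microglial barcodes it was at 29.2 CPM. Ifit3 stood at 711 CPM in members and 5.93 CPM in the others. Usp18, the protease that removes Isg15 and blocks the receptor, stood at 649 and 12.7 CPM, and Irf7, the factor that amplifies interferon transcription, at 617 and 15.0 CPM. The other 4 were lower in members, with Ifit2 at 357 CPM, Rsad2, the antiviral enzyme viperin, at 341 CPM, Ifit1 at 337 CPM and Oasl1 at 249 CPM. These 4 lay between 0.505 and 3.53 CPM in the other microglial barcodes. Rsad2 was unevenly spread: 33.6% of members had a UMI, and 1 member held 54 of its 473 UMIs. The share of barcodes with a UMI was read in other cell types as well. Among 188 choroid plexus barcodes (median 1044 UMIs, against 3160 in members) at most 1.06% had a UMI of any one of the 8. In 65 granulocyte barcodes the share ran from 0 for Ifit3 and Rsad2 to 12.3% for Irf7 and 15.4% for Isg15, and in 148 NK cell barcodes from 0 for Ifit2 and 0.676% for Ifit1 to 14.2% for Irf7. The rule asks for these genes, so the higher shares in members follow from the choice.

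**Figure D2:**
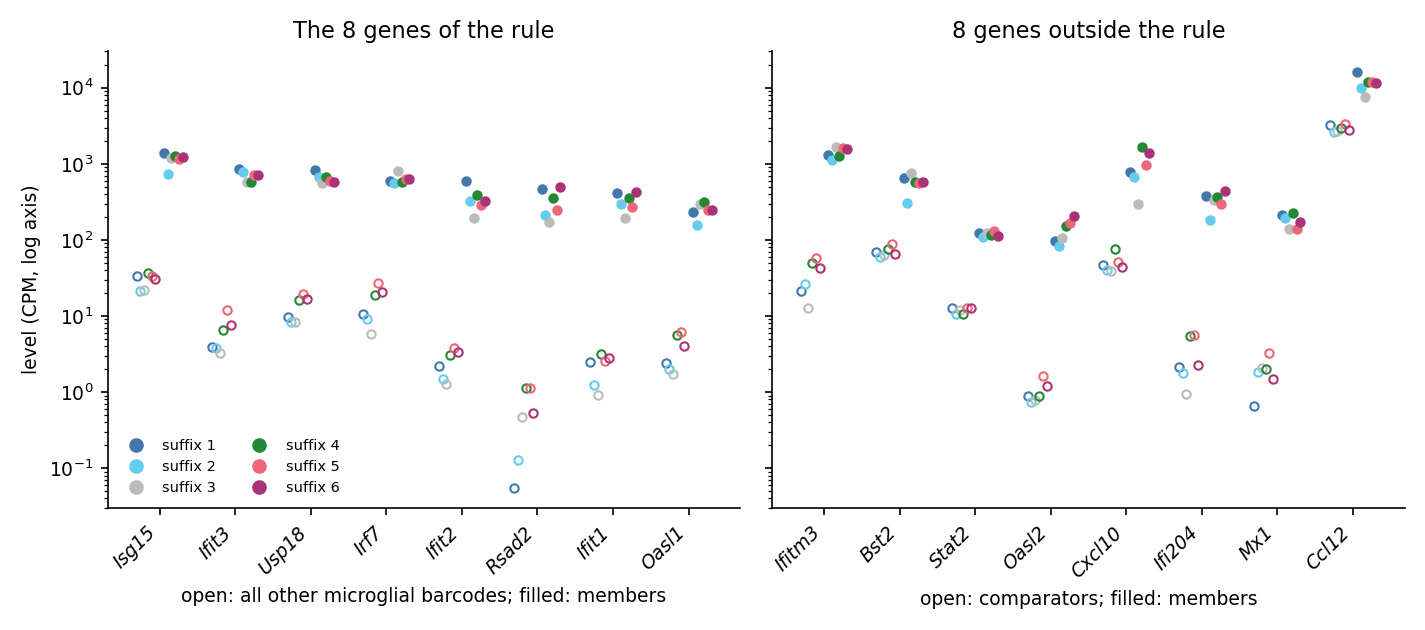
Levels in CPM on a log axis, for the 8 genes of the rule (left) and 8 genes outside it, picked with their values known (right); each point is 1 barcode suffix by color, filled for members and open for all other microglial barcodes (left) or comparators (right). On the left the choice of members sets the filled points apart; on the right all 6 filled points of each gene lie above its 6 open ones.

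The levels of these genes were also read apart from the choice. When each barcode's UMIs were split at random, members chosen on 1 part and levels read from the other, 311 barcodes met the rule on the first part. In the second part they had 1149 CPM of Isg15, 658 CPM of Ifit3 and 391 CPM of Rsad2, against 21.0, 3.81 and 0.232 CPM in barcodes with none of the 8 in the first part. Beside the 435 members, Isg15, Ifit2, Ifit3, Usp18 and Irf7 were thus lower and Rsad2, Ifit1 and Oasl1 higher. These levels come from UMIs that the choice did not use, but from the same cells.

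Outside the 14 genes of the rule, 4687 genes had a mean of the 2 levels of at least 25 CPM. Comparators were weighted so that each suffix and UMI bin counted as much as it did in the members, and the ratio of members to these matched comparators was taken for each gene. The ratio was at least 2 for 208 genes, 4.44% of those compared, and at most 0.5 for 28 genes, 0.597%, with a median of 0.943 over all. Suffix 3 had too few members to be read alone, and direction was checked in the other five suffixes, each with at least 20 members, and in the 3 UMI bins. The direction was the same throughout for 170 of the 208 genes and for 19 of the 28. Without shared sequences 218 of 4663 genes were at least 2-fold higher and 39 at 0.5-fold or lower, 198 and 22 of them among the genes counted with all barcodes. The count of lower genes was less steady than that of higher ones. It was 69 without suffix 5, 85 when choice and levels came from separate UMIs, and 17 with no upper limit on genes. A gene close to 0 in comparators could pass the filter only by being high in members. Of the 4459 genes with at least 25 CPM in matched comparators themselves, 105 (2.35%) were at least 2-fold higher.

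**Figure D3:**
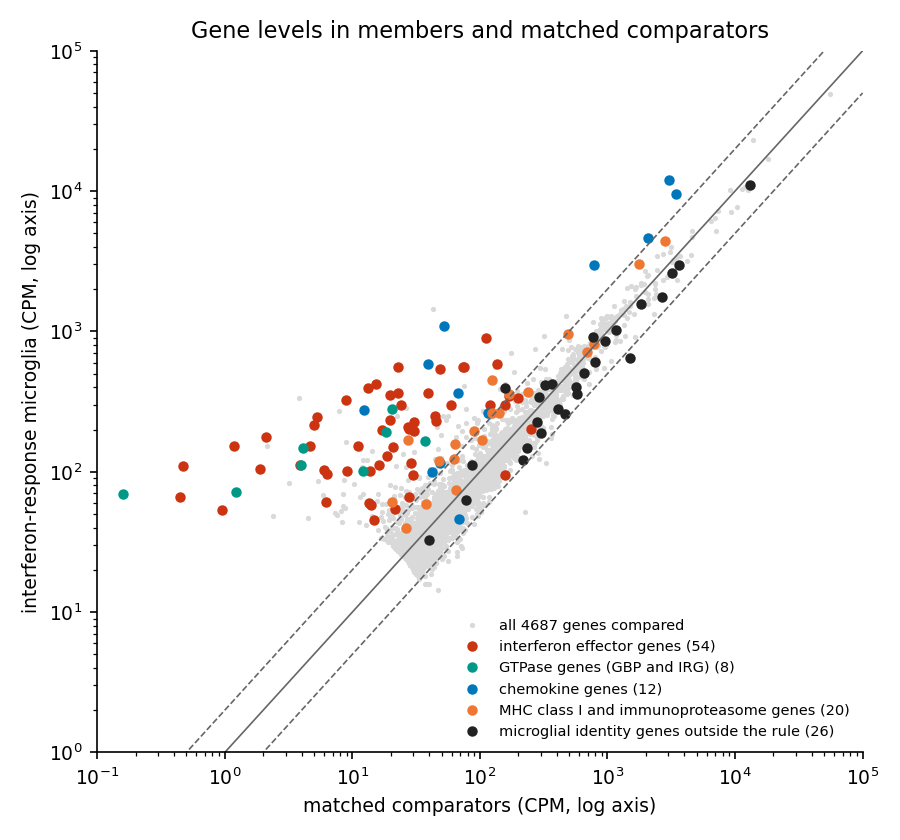
Level of each of the 4687 genes compared in members (vertical) against matched comparators (horizontal), both in CPM on log axes; the solid line marks equal levels, the dashed lines 2-fold higher and lower, and colors mark 5 gene lists with the number of genes compared. A gene low in comparators is plotted only if it is high in members, as were 32 of 54 effector and 7 of 8 GTPase genes; chemokine genes lie above the upper line at high levels, and most microglial identity genes lie just under the solid line.

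The genes of highest ratio are named first. By a fixed rule (the 20 highest ratios among genes that went the same way in each of those suffixes and bins), the highest were Iigp1, Ifit3b, Cmpk2, Oasl2, Ifi204, Mx1, Ifi209, Ifi47, Oas2, Phf11a, Slfn5, Zbp1, Gbp2b, Ifi44l, Ifi207, Ifitm3, Gm4951, Ifi202b, Isg20 and Gbp2. Of these 20, 12 were on the list of interferon effector genes, 4 on that of GTPases and 3 on that of PYHIN genes. All but Ifitm3 had under 25 CPM in comparators, so 19 were compared only through their level in members. Iigp1, a GTPase that attacks the vacuoles of intracellular parasites, was at 69.9 CPM (56.7 to 85.3) in members and 0.159 CPM (0.0901 to 0.261) in matched comparators. It had a UMI in 14.5% of members. Cmpk2, a mitochondrial nucleotide kinase that lies beside Rsad2 on chromosome 12, was at 66.3 and 0.442 CPM, a ratio of 150, or 173 without shared sequences. Ifit3b was at 110 and 0.471 CPM. It is a near-identical neighbor of Ifit3 (chr19:34607970-34613401 against chr19:34583531-34588731), so how reads were shared out between the pair is uncertain. Mx1, a GTPase that traps viral nucleocapsids, was at 178 CPM (157 to 202) and 2.11 CPM (1.66 to 2.64). With so few UMIs in comparators single libraries moved these values. Iigp1 in comparators was at 0.926 CPM under suffix 1 and at most 0.138 CPM under the others, and without suffix 5 the ratio of Mx1, 84.4, was 127 and that of Ifit3b, 232, was 427.

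Ifitm3, a membrane protein that blocks viral entry, was the most abundant of the 20. Its level was 1435 CPM (1373 to 1500) in members and 43.1 CPM (41.0 to 45.2) in matched comparators, a ratio of 33.3, or 35.1 without shared sequences. By suffix the members stood at 1302, 1121, 1653, 1272, 1591 and 1544 CPM and the comparators at 21.2, 26.6, 12.9, 49.4, 58.4 and 42.6 CPM. The 2 sets did not overlap. Ifitm3 had a UMI in 86.7% of members and 5.56% of comparators. In other cell types the share was 66.2% of granulocyte, 16.0% of choroid plexus and 4.73% of NK cell barcodes, not matched for depth. Other Ifitm genes differed from it. Ifitm2 was at 48.3 and 14.2 CPM, Ifitm10 was lower in members at 25.2 and 46.9 CPM, and Ifitm1 (10 UMIs in members) and Ifitm6 were under the filter. Ifitm7 had no UMI in members.

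Of 76 interferon effector genes in the matrix, 54 passed the filter, 50 of these were at least 2-fold higher and none was at 0.5-fold or lower, with a median ratio of 7.83 (8.21 without shared sequences). Of the 54, 22 had a comparator level of at least 25 CPM, and the rest were compared only through their level in members. Among the 22, 18 were at least 2-fold higher, against 2.35% of all such genes, and their median ratio was 5.05. The most abundant in members were Ly6e, a surface protein (891 and 111 CPM), Lgals3bp (585 and 136 CPM), Bst2, the tetherin that holds budding virus (561 and 74.1 CPM), and Ifi27l2a (556 and 75.3 CPM). The ratio of Ly6e lay between 7.32 and 8.49 in the suffixes with at least 20 members and was 12.1 under suffix 3. Its level in members ran from 759 to 1549 CPM over the suffixes. The list had exceptions, named here after their values were seen. Ifi27 was at 94.4 CPM in members and 159 CPM in comparators and Pnp at 203 and 253 CPM. The PYHIN genes are a family of DNA-binding proteins clustered on chromosome 1. The list used here left out Ifi202b, which lies in that cluster and was counted with the effector genes. Of the 12 listed genes in the matrix, 5 passed the filter and 4 were at least 2-fold higher, against 4.44% of all genes compared. Among these 4 were Ifi204 at 338 and 3.79 CPM, Ifi209 at 153 and 2.13 CPM and Ifi207 at 269 and 7.79 CPM. Ifi207 in comparators was at 14.0 CPM under suffix 5 and between 1.64 and 6.39 CPM under the others. All 4 passed the filter only through their level in members, so their count follows in part from the filter. Aim2, the inflammasome sensor and the one PYHIN gene with a comparator level of at least 25 CPM, was at 87.2 and 62.5 CPM, a ratio of 1.40 that ran from 0.841 to 2.06 over the suffixes. The interferon-inducible GTPases of the GBP and IRG families numbered 8 of 18 past the filter, and all 8 were at least 2-fold higher, against 4.44% of all genes compared, from Gbp7 at 4.42-fold to Iigp1. Of these 8, Gbp7 alone had a comparator level of at least 25 CPM, so the other 7 were compared only through their level in members.

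Along the signaling chain, the largest ratios were those of transcription factors, while receptors and kinases lay within 2-fold of the comparators. Stat2 was at 122 CPM (104 to 142) in members and 12.0 CPM in matched comparators, a ratio of 10.1 that lay between 8.94 and 11.2 over the suffixes. By suffix its members stood at 124, 109, 122, 118, 133 and 114 CPM and its comparators between 10.5 and 12.8 CPM, with no overlap. Irf9, its partner, had a ratio of 2.17 (from 1.92 to 2.42 over the suffixes) over 36.9 CPM in comparators, and Irf1, which also responds to interferon gamma, stood at 178 and 65.3 CPM (ratio 2.72). Of the receptor genes, Ifnar1 had a ratio of 0.849, Ifnar2 of 0.872 and Ifngr1, a chain of the interferon gamma receptor, of 0.653, with Ifngr1 below 1 in 5 of 5 suffixes. Ifngr2, its partner chain, was at 1.18 and above 1 in 4 of 5, Jak1 at 0.965, Stat3 at 1.21, Irf3 at 0.827, Irf5 at 0.989 and Irf8, a factor of microglial identity, at 1.18. Socs1, a feedback inhibitor, was at 38.9 and 9.01 CPM, under the filter, and 15 of its 54 UMIs were in 1 member. In all, 17 of 21 signaling genes passed the filter, 4 were at least 2-fold higher and none at 0.5-fold or lower. Stat2 passed through its level in members; of the 16 with a comparator level of at least 25 CPM, 3 were at least 2-fold higher, against 2.35% of all such genes.

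Of the interferons themselves, Ifnb1, which encodes interferon beta, was the one with UMIs in members. Its 67 UMIs gave 48.3 CPM (37.4 to 61.3), against 2.39 CPM (1.93 to 2.92) in matched comparators, a ratio of 20.2. The value rested in part on 1 barcode, of a shared sequence, with 29 of the 67 UMIs, and without shared sequences the ratio was 10.7. The gene was seen in 22 members, or 5.06% (3.20% to 7.56%), and in 111 comparators, or 0.337% (0.277% to 0.405%). Among barcodes with 1 of the 8 genes it was seen in 1.42%, with 2 in 2.30%, and with at least 3 but under the share in 3.39%, but depth rose along with these shares, with medians of 3122, 3530 and 4525 UMIs. The depth-matched ratios of its level, 2.87, 5.93 and 4.02, did not rise in order. Within the members it did not follow the order, with 6.21%, 2.07% and 6.90% in the lowest, middle and highest of 3 equal groups by the share of the 8 genes, and 50 of the 67 UMIs were in the highest. The members with Ifnb1 were deep, with a median of 4600.5 UMIs. Members under suffix 3 had none of its UMIs. The other 20 interferon genes of the list, among them the Ifna genes, Ifng, Ifnk, Ifne, Ifnl2 and Ifnl3, had no UMI in members. In comparators Ifng had 19 UMIs and the rest of these genes had none either, so their absence was not particular to members. With 1387301 UMIs in all members, a count of 0 allows up to 2.16 CPM, taken as 3 counts of the total.

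Of 14 genes that sense foreign nucleic acid past the filter, 5 were at least 2-fold higher, and the median ratio of the 14 was 1.10. Ifih1 (MDA5) was at 146 and 11.5 CPM, a ratio of 12.7, and Dhx58 (LGP2) at 140 and 14.3 CPM. Ddx58 (RIG-I), at 87.2 and 8.63 CPM, Tlr3, at 133 and 25.1 CPM, and Mb21d1, the cytosolic DNA sensor cGAS at 71.4 and 27.0 CPM, were named after their values were seen. Ifih1, Dhx58 and Ddx58 passed the filter through their level in members. Of the 11 genes with a comparator level of at least 25 CPM, 2 were at least 2-fold higher, against 2.35% of all such genes. Mavs, the adaptor of the RNA sensors, also named after its value was seen, was at 23.1 and 34.1 CPM, Tmem173 (STING) had a ratio of 0.873, and Unc93b1, a chaperone of endosomal Toll-like receptors, of 1.09.

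MHC class I genes were higher by a smaller factor. B2m, the light chain shared by class I molecules, was at 4434 CPM (4324 to 4547) in members and 2812 CPM (2796 to 2827) in matched comparators, a ratio of 1.58 (1.66 without shared sequences). By suffix its members stood at 5157, 4162, 4350, 4392, 3997 and 4836 CPM and its comparators between 2425 and 3130 CPM, with no overlap. H2-D1 had a ratio of 1.72 and H2-K1 of 1.97. Of 20 class I and immunoproteasome genes past the filter, 8 were at least 2-fold higher, among them Tap1, the peptide transporter, at 169 and 27.2 CPM, named after its value was seen. Of the 19 with a comparator level of at least 25 CPM, 7 were, against 2.35% of all such genes. The chaperone Calr was at 1.03.

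MHC class II genes differed from this by their dependence on the library. Cd74, the invariant chain, was at 696 CPM in members and 174 CPM in matched comparators, a ratio of 4.01. By suffix, however, the members stood at 3520, 670, 139, 86.4, 166 and 280 CPM. Suffix 1 was far above the rest, and suffixes 4 and 5 had ratios of 1.14 and 0.982. Without suffix 1 the ratio of Cd74 was 1.98 and that of H2-Aa 1.77, both under 2. H2-Aa ran from 0.206 to 9.35 over the suffixes. In its UMI bins Cd74 had ratios of 1.51, 1.13 and 4.33 from the shallowest to the deepest. Barcodes with a UMI of H2-Aa, H2-Ab1 and Cd74 together were 4.83% of members and 1.19% of matched comparators, with between 0 and 26.5% of members by suffix and more than in comparators in 3 of 5 suffixes. A higher class II level was thus not common to the libraries.

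**Figure D4:**
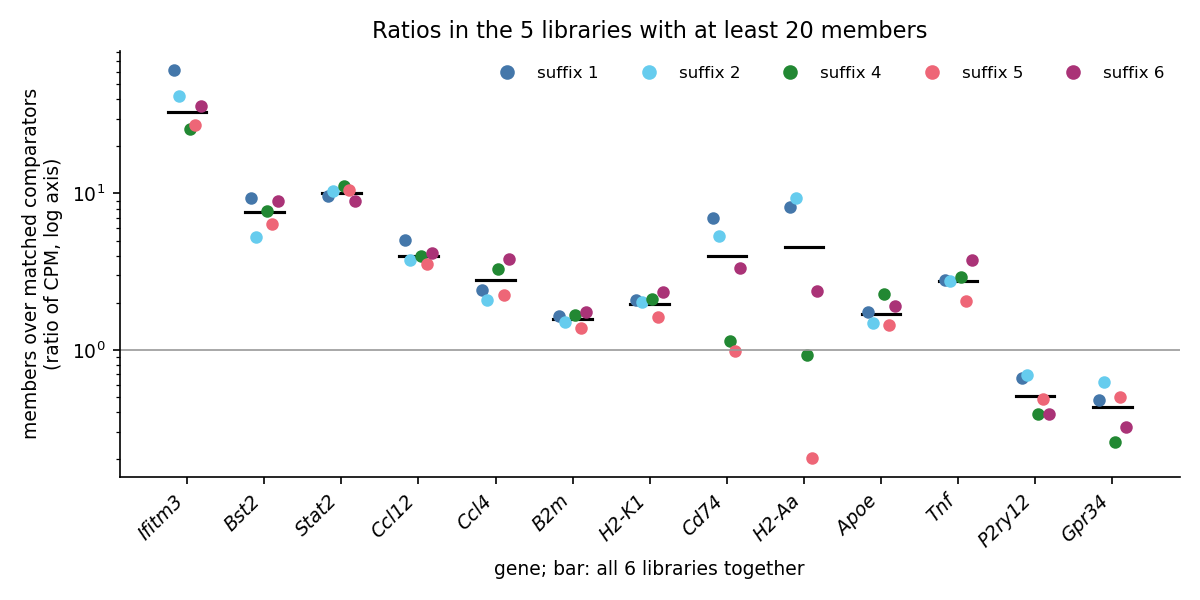
Ratio of the level in members to that in matched comparators for 13 genes (log axis); points are the 5 suffixes with at least 20 members by color, black bars all 6 suffixes together, and the gray line equal levels. Points of Ifitm3, Bst2, Stat2 and Ccl12 lie well above 1 for each suffix, those of Cd74 and H2-Aa spread across 1, and those of P2ry12 and Gpr34 lie below 1.

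Chemokine genes were higher in members too. Ccl12, a monocyte-attracting ligand of Ccr2, was the most abundant, at 12046 CPM (11864 to 12230) against 3046 CPM (3029 to 3063), a ratio of 3.95 (3.77 without shared sequences). By suffix its members stood at 16319, 9801, 7464, 11905, 11813 and 11699 CPM and its comparators between 2610 and 3346 CPM, with no overlap. Ccl2 was at 2955 and 787 CPM, Ccl4 at 9603 and 3438 CPM and Ccl3 at 4610 and 2061 CPM. Of 12 chemokine genes past the filter, 11 were at least 2-fold higher, and of 11 with a comparator level of at least 25 CPM, 10, against 2.35% of all such genes. The exception, named after its value was seen, was Ccl6 at 46.1 and 68.4 CPM. Cxcl10, an interferon-induced ligand of Cxcr3, was at 1100 CPM (1046 to 1157) against 52.2 CPM and was found in 38.4% of members and 5.03% of comparators. Ccl5 was at 587 and 38.9 CPM, in 18.4% of members, with 41.5% of its 815 UMIs in 5 members. Its levels in members ran from 226 to 1601 CPM over the suffixes. Without suffix 6 it was at 415 and 23.8 CPM. Cxcl13 was carried by few barcodes: it was at 276 and 12.4 CPM, but 150 of its 383 UMIs were in 1 member and 86.7% in 5 members. Cxcl10, Cxcl13 and, as a chemokine, Ccl5 were chosen after their values were seen.

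Barcodes with at least 1% of their UMIs on Ccl2 and Ccl12 were 50.6% of the members (45.8% to 55.4%) and 8.36% of the matched comparators. Members exceeded comparators in each of 5 suffixes, with 32.8% to 62.3% against 5.83% to 10.1%. Without shared sequences the shares were 61.8% and 11.5%. Barcodes with at least 3 cell cycle genes were 6.90% of members and 4.60% of comparators, higher in 3 of 5 suffixes, so the libraries did not share a direction.

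Inflammatory genes outside the interferon and chemokine lists differed less. Of 18 past the filter, 2 were at least 2-fold higher, Tnf at 748 and 271 CPM (ratio 2.76, from 2.05 to 3.76 over the suffixes) and Saa3 at 59.1 and 17.0 CPM, both named after their values were seen. Saa3 passed through its level in members. Of the 15 with a comparator level of at least 25 CPM, 1 was at least 2-fold higher, Tnf, against 2.35% of all such genes. The 4 most abundant, Nfkbia, Nfkbiz, Il1a and Cd14, had ratios of 1.21, 1.19, 1.02 and 0.937. Of 26 immediate early and heat shock genes, which respond to tissue dissociation, none passed either limit. Their median ratio was 0.827, against 0.943 over all genes compared, and Jun had a ratio of 0.805, Fos of 0.738, Junb of 0.766 and Btg2 of 0.728, each below 1 in 5 of 5 suffixes. The glucocorticoid target Sgk1 was at 1321 and 2335 CPM, a ratio of 0.566, and Atf4 at 0.998.

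Of 26 microglial identity genes past the filter outside the rule, 1 was at 0.5-fold or lower and 1 at least 2-fold higher, against 0.597% and 4.44% of all genes compared, and the median ratio was 0.813, against 0.943 over all. Gpr34, a lysophosphatidylserine receptor of microglia, was at 651 CPM (609 to 695) in members and 1502 CPM (1491 to 1513) in matched comparators, a ratio of 0.433. Its members stood at 813, 1094, 974, 377, 625 and 532 CPM by suffix and its comparators between 1244 and 1743 CPM, with no overlap. Gpr84, a fatty acid receptor, was the gene at least 2-fold higher, at 394 and 159 CPM, and was named after its value was seen. Csf1r, the receptor on which microglia depend, had a ratio of 0.826, Sparc of 0.814 and Selplg of 0.658. Among the genes of the rule, P2ry12 was at 1896 and 3758 CPM (ratio 0.505), Tmem119 at 0.681 and Cst3, a protease inhibitor, at 0.642, while the complement genes C1qa, C1qb and C1qc were at 1.18, 1.24 and 1.27. The rule sets a lower limit on the sum of these 6 genes, which was 70401 CPM in members and 91731 CPM in comparators, and none on their balance. Levels are shares of a barcode's UMIs, so less RNA of these genes and more RNA of others cannot be told apart.

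Apoe, which carries lipid and marks disease-associated microglia, was at 23242 CPM (22989 to 23497) in members and 13715 CPM (13680 to 13750) in matched comparators, a ratio of 1.69, or 2.02 without shared sequences. It was higher in 5 of 5 suffixes, with ratios from 1.43 to 2.27. Barcodes short of the rule were higher too, so a raised Apoe level was not particular to members. Its ratio was 1.54 with 1 of the 8 genes, 1.96 with 2, and 2.19 with at least 3 but under the share. Of 18 disease-associated genes past the filter, 6 were at least 2-fold higher, and the median ratio was 1.41. Of the 15 with a comparator level of at least 25 CPM, 4 were, against 2.35% of all such genes. Without shared sequences the median was 1.83. Without them it was 1.17 for signaling, 1.91 for class I, 20.6 for GTPase, 3.29 for chemokine and 0.812 for identity genes. In the same 3 sets of barcodes short of the rule, the median over the disease-associated genes was 1.28, 1.72 and 1.46, against 1.41 in members. The lysosomal protease genes Ctsb, Ctsz and Ctsd had ratios of 1.30, 1.22 and 0.914. Axl, a receptor for dying cells that interferon induces, was at 250 and 51.4 CPM and was named after its value was seen.

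Barcodes short of the rule allowed the profile to be followed along its scale. The median ratio of the interferon effector genes was 1.43 in barcodes with 1 of the 8 genes, 3.08 with 2, 4.18 with at least 3 but under the share, and 6.41, 8.02 and 11.4 in the lowest, middle and highest of 3 equal groups of 145 members, ordered by their share on the 8 genes (medians 0.194%, 0.368% and 0.767%). The 32 effector genes under 25 CPM in comparators could enter only by being high in members; over the other 22 the median was 1.20, 1.81, 2.54, 3.56, 5.20 and 7.11. Over the 11 chemokine genes of at least 25 CPM in comparators it went from 1.40 to 4.55 and over the 19 such class I genes from 1.16 to 2.16, while the 16 such signaling genes lay between 0.943 and 1.07. GTPase genes went from 1.5 to 43.0, but 7 of the 8 had passed the filter through their level in members. Ifitm3 was already 3.93-fold higher with 1 of the 8 genes, at 140 CPM, and 43.7-fold in the highest group, at 1925 CPM. Ifi27l2a did not follow the order within members, with 625, 483 and 550 CPM in the 3 groups. Identity genes did not either: their median was 0.919, 0.849 and 0.807 short of the rule and 0.799, 0.899 and 0.653 in the 3 groups. The highest group was also shallower, with a median of 1779 UMIs, and held 71 shared barcodes, against 3671 UMIs and 15 in the lowest. The genes that differed most between these groups were Edn1 (5.57 and 95.7 CPM), Cmpk2 (11.1 and 150 CPM) and Il1rn (9.28 and 123 CPM). For Edn1 and Il1rn suffix 1 carried the level, at 154 and 206 CPM in its members.

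**Figure D5:**
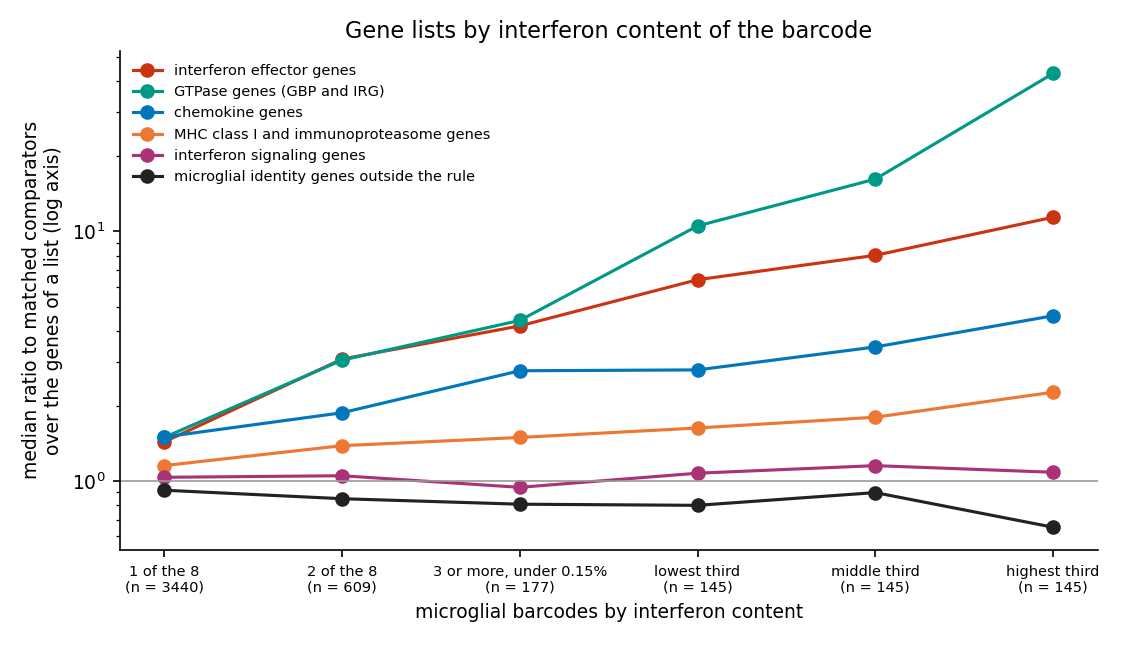
Median over the genes of a list of the ratio to matched comparators (log axis), for microglial barcodes with 1 or 2 of the 8 genes, with 3 or more but under 0.15% of UMIs, and for the members in 3 equal groups by their share on the 8 genes; n is the number of barcodes and the gray line marks equal levels. Effector genes climb from 1.43 to 11.4 and GTPase genes from 1.5 to 43.0, but 32 of 54 and 7 of 8 of them were compared only because they were high in members; signaling genes stay near 1.

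Markers of other cells were read in the same way. The 11 monocyte markers summed to 366 CPM in members and 47.0 CPM in matched comparators, and 10 of the 11 were higher. The sum was higher under every suffix, from 219 to 538 CPM against 21.9 to 56.2 CPM. Ms4a4c gave the largest part, 198 and 17.1 CPM, and it is itself on the interferon effector list. Plac8 (86.5 and 5.42 CPM, in 14.7% of members and 0.576% of comparators) and Fn1 (56.9 and 8.51 CPM, in 6.67% and 1.18%) were higher in 5 of 5 suffixes as well. Fn1 rested largely on suffix 4, at 184 CPM in its members; without that suffix it was at 28.3 and 7.15 CPM. The others were sparse. Ccr2, the monocyte chemokine receptor, had 9 UMIs, in 5 members, at 6.49 and 6.44 CPM, and Ly6c2 had 6 UMIs, in 1 member. No monocyte marker was at 0. The 12 NK cell markers summed to 656 and 84.1 CPM, of which Ccl5 was 587 CPM, with Klra8 and Eomes at 0, and to 422 and 51.9 CPM without suffix 6. The border macrophage markers summed to 138 and 115 CPM, with Stab1 at 115 CPM and with Cd163, Lyve1, Cbr2, Cd209f and Cd36 at 0. Plasmacytoid dendritic cell markers summed to 819 and 629 CPM, mostly Lag3 (536 CPM), with 6 of 12 at 0. Conventional dendritic cell markers summed to 276 and 413 CPM, mostly Fscn1 (208 CPM), with Cd209a and 5 others of 12 at 0. T and B cell markers were 9 of 12 at 0, and the sum of 357 CPM was Ighm at 346 CPM. Granulocyte markers summed to 353 and 352 CPM, with Csf3r at 170 CPM and Ly6g, Camp and Ltf at 0. Suffix 4 alone held the members' sum up, at 1119 against 359 CPM, and 105 of the 126 UMIs of S100a8 were in 1 member; without that suffix the sums were 181 and 350 CPM, and under each other suffix the members' sum was the lower. Mast cell, neuron and endothelial markers each summed to at most 15.1 CPM in members, and the erythroid markers were at 0. Astrocyte markers summed to 130 and 125 CPM (Slc1a3, 125 CPM) and oligodendrocyte markers to 152 and 101 CPM (Cnp, 97.3 CPM). The part of these markers in the profile was not tested.

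The genes lowest in members were, by the same rule, Ttr, Sox4, Csmd3, Syk, Neurl1a, Pdcd4, Tuba1a, Tmem206, Gpr34 and Ddah2. Ttr, the transthyretin made by choroid plexus, was at 51.9 and 224 CPM, or 34.4 and 189 CPM without suffix 1. It made up most of the choroid plexus markers, which summed to 54.1 and 240 CPM and were lower in members under every suffix. Sox4, a transcription factor, was at 115 and 331 CPM, with ratios from 0.232 to 0.497 over the suffixes, and Tuba1a, an alpha tubulin, at 123 and 290 CPM. Syk, a kinase of immune receptors, rested on 22 UMIs in members (15.9 and 39.6 CPM).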

How the data were processed

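Single-cell RNA sequencing (10x Chromium 3' v2) measured sorted CD45+ brain cells of 6 SCID mice, 3 with IL-33-expressing and 3 with pcDNA U87 tumors. The authors deposited raw UMI counts per gene and barcode, 1 matrix for all libraries, made with Cell Ranger 3.1 on mm10 and analyzed in Seurat 3.1.5 per the submitters' processing notes; the annotation release is not given in the sources used here. The 6 suffixes held 2879 to 10217 barcodes and 9745192 to 24393841 UMIs. Depth differed between suffixes, and deeper barcodes reached the rule more often.

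Counts were summed over members and over comparators, and comparators were weighted to the members' UMIs per suffix and UMI bin (Python 3.11.15, numpy 2.4.6, scipy 1.17.1, pandas 2.3.3; scanpy 1.11.5 for Scrublet). Genes with a mean of both levels of at least 25 CPM were compared, and a ratio of at least 2 or at most 0.5 was counted. Since suffixes were not assigned to groups, all barcodes were treated as 1 pooled sample with no replicate test; intervals (exact binomial, exact Poisson, gamma for weighted levels) cover counting error only. Named genes were the rule genes, the 20 highest and 10 lowest ratios of one direction throughout and the 4 most abundant of each list. All signaling, ligand and Ifitm genes and the most abundant marker of each cell type were named too. So were the 3 genes that differed most between the highest and lowest groups of members. Further cell type markers given with values, such as Plac8, Fn1, Ccr2, Ly6c2 and S100a8, fall under none of these rules. Other genes are said to be named after their values were seen. Values of a few genes are not reported here. The members, lists and markers were chosen with earlier results of these data known. On simulated data of 4616 genes with 200 changed 3-fold, 90.5% of the changed genes came out within 20% of their ratio and 100.0% were counted, and 0.0% of the others were. Simulated members were drawn at random from the mean levels of comparators, and all changed genes were above the filter in comparators. The simulation thus had no further spread between barcodes, no choice of members on their counts and no changed gene near 0 in comparators. It gives no error rate for the 208 and 28 genes. Alternatives changed the limits of the rule, bins, weighting, filter, libraries and shared sequences; those on shared sequences were added after the data were seen.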

Additional observations from a re-analysis of the deposited data

Results flagged for a closer look

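Barcodes outside the members also met the 8-gene part of the rule. Among the 1122 passing barcodes with 3% or less of their UMIs on the microglial genes, 23 (2.05%) met it. Of these, 16 were among the 334 barcodes with monocyte markers (4.79%), 3 among 148 NK cell barcodes and 1 each among 65 granulocyte, 28 border macrophage and 52 plasmacytoid dendritic cell barcodes, while none was among 188 choroid plexus or 67 conventional dendritic cell barcodes. Among 864 microglial barcodes above 2500 genes, 38 (4.40%) met it, at a median of 9266 UMIs in those 864. Among 629 microglial barcodes with 5% or more mitochondrial UMIs, 6 (0.954%) did. These barcodes were noted because they lie outside the comparisons above.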

How the results depend on the processing

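No paired analysis was possible because suffixes were not assigned to mice or groups here, the link through the study's list of libraries being left unused, and no test between mice was made. The number of members, 435, was 257 with the 8 genes at 0.3% or more and 217 with 6 genes (without Isg15 and Irf7), and 292 to 421 with a suffix left out. The share of microglial barcodes, 1.16%, was 1.01% with over 5% on the microglial genes, 1.52% with at least 2 of the 8 genes, 0.853% with at least 4, 1.41% at 0.1%, 0.683% at 0.3%, 0.577% with 6 genes, 0.705% after thinning to 1000 UMIs, 1.32% without shared sequences, 1.27% with each sequence once, and 0.932% (without suffix 5) to 1.34% (without suffix 2) with a suffix left out. The 208 genes at least 2-fold higher were 975 in the bin of 500 to 1000 UMIs alone and 485 in that above 1000 to 2000, 327 with a filter of 10 CPM, and 200 to 231 with a suffix left out; the other alternatives gave 140 to 269. The 28 lower genes were 17 with no upper limit on genes, 18 with at least 2 of the 8 genes, 53 with at least 4, 78 at 0.3%, 76 with 6 genes, 695 and 392 in those bins alone, 104 and 11 with filters of 10 and 50 CPM, 85 with choice and levels from separate UMIs, and 26 to 69 with a suffix left out (69 without suffix 5). The matched ratio of named genes (the median over the 20 highest), 50.9, was 33.4 in the bin above 1000 to 2000 UMIs alone, 25.4 against all other microglial barcodes, and 43.8 to 58.6 with a suffix left out; the others gave 42.4 to 66.1. Of 2727 values of 101 named genes under the alternatives, 2031 stayed within the counting interval of the main ratio, 693 moved out of it, and 3, all of the 52 genes past a limit or among the highest or lowest, changed direction: Ifnb1 (ratio 0) and H2-Ab1 (0.503) in the bin of 500 to 1000 UMIs alone, and H2-Aa (0.774) in the next bin alone. Ratios of the other 49, nearer to 1, crossed it in 63 of 1323 values, for 21 genes, 23 of the 63 in a UMI bin alone. The 20 highest and 10 lowest genes were chosen as going the same way in each suffix with at least 20 members and in each bin. Settings with a suffix left out or a bin alone could therefore hardly reverse them. The median over the 20 highest likewise follows genes picked for their high ratio. The causes were not tested.

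Depth limits what can be read: a median member held 9 UMIs of the 8 genes, and shallow microglia with the same profile can miss the rule. Suffix 3 held 14 members. Levels of genes under 25 CPM rest on few UMIs, and barcodes of 1 library are not replicates of a mouse.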
